A study of Mus musculus with 16 samples.

Results

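The neuronal nicotinic acetylcholine receptor is a pentameric cation channel opened by acetylcholine, and 8 of its subunit genes were followed here across sensory ganglia: *Chrna3*, *Chrna4*, *Chrna5*, *Chrna6*, *Chrna7*, *Chrnb2*, *Chrnb3* and *Chrnb4*. They are listed by name, as the α3 to α7 and β2 to β4 subunits of neurons. All 8 were found among the 22609 gene symbols of the count tables. RNA came from cells sorted as sensory neurons from adult C57BL/6J mice, labelled male, that carried *Pirt*/TdTomato. In this reporter, Cre expressed from the sensory neuron gene *Pirt* switches on a red fluorescent protein, and brightly red cells were sorted by FACS. The 4 groups all carried this reporter, were given no treatment that the labels state, and differed in the ganglion: trigeminal (TG), nodose and jugular (NG/JG, labelled nodose), dorsal root at L3–L5 (L3–L5 DRG) and dorsal root at T10-L1 (T10-L1 DRG). Each had 4 libraries, 16 in all. The number of animals behind a library is not given in the sources used here, so p-values measure the spread between these libraries, which may be partly technical.

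Receptors of this family are built from combinations of subunits. The α3, α4 and α6 subunits carry the principal face of the acetylcholine site and pair with β2 or β4, whereas α5 and β3 are accessory subunits and α7 can form channels alone. α3 with β4 is known as the receptor of fast transmission in autonomic ganglia, α4 with β2 as the main receptor of the brain, and α6 from dopaminergic neurons, the visual system and pain-sensing neurons.

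Libraries had 4735624 to 13333318 reads on genes, with a median of 8332661. A count of 3, used as the floor of detection, was worth 0.225 to 0.6335 CPM (counts divided by all reads that fell on genes in that library, in the usual CPM unit) in single libraries, a limit set by counting error alone, as no molecular identifiers were used. An NG/JG library had reads on 10132 to 13029 genes, and a library of another ganglion on 11527 to 18571. TG library 1 stood apart from the other TG libraries, with a chi-square of 214 to 233 per gene against 29.9 to 33.3 among the rest. The NG/JG libraries differed from each other by 181 to 375 per gene, and pairs within a DRG group by 62.5 to 250, so it was not alone in this. In library 4 of L3–L5 DRG, 66.6% of the uniquely aligned reads lay outside genes, the highest share of the 16. By chi-square that library did not stand apart, as its 62.5 per gene against library 1 was the lowest in its group. All libraries are labelled male, yet each had between 1279 and 8362 reads on *Xist* and 0 on the 13 counted genes of chromosome Y, so the libraries went against the labelled sex. The 9 markers of sensory neurons were above the floor in every ganglion, and their summed level ranged from 948 CPM in TG library 1 to 12212 CPM in L3–L5 DRG library 3.

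*Chrna5* (ENSMUSG00000035594.8) lay on chromosome 9 from 54828687 to 54855586 of mm9, on the plus strand. Next to it and on the minus strand were *Chrna3* (ENSMUSG00000032303.5, 54859150 to 54874366) and *Chrnb4* (ENSMUSG00000035200.6, 54875963 to 54896351). Only 3563 bases separated *Chrna5* from *Chrna3*, and 1596 bases separated *Chrna3* from *Chrnb4*. A second cluster, on chromosome 8, held *Chrnb3* (ENSMUSG00000031492.6, 28479183 to 28510201, plus strand) and *Chrna6* (ENSMUSG00000031491.8, 28513686 to 28524416, minus strand), 3484 bases apart. The remaining 3 genes stood alone, with *Chrna4* (ENSMUSG00000027577.8) at 180753085 to 180778251 of chromosome 2, *Chrnb2* (ENSMUSG00000027950.3) at 89557370 to 89568554 of chromosome 3 and *Chrna7* (ENSMUSG00000030525.6) at 70243578 to 70357455 of chromosome 7, all on the minus strand. In GENCODE M1, no member shared annotated exon bases with another gene. The annotation used for the counting is not given.

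The 250 bases before the start site are shown for the 3 genes of the chromosome 9 cluster, whose neighbours were counted at very different levels, and for *Chrnb2*, the member found in most libraries. They were taken from RefSeq on GRCm38.p6, another build than that of the counts, and are written 5′ to 3′ on the strand of the gene, with the GC box letters GGGCGG or their reverse complement CCGCCC in capitals.
Chrna3, chr9:55026563-55026812, minus strand: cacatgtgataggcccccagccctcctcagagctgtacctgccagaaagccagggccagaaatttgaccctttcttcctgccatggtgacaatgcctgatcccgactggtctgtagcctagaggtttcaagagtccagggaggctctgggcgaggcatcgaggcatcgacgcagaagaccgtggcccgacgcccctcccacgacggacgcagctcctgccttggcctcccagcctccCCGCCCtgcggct
Chrnb4, chr9:55048545-55048794, minus strand: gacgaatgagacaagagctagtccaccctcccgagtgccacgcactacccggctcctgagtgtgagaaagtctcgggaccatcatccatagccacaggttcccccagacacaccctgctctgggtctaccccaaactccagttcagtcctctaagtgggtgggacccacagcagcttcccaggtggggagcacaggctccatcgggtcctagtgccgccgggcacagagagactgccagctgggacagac
Chrna5, chr9:54981238-54981487, plus strand: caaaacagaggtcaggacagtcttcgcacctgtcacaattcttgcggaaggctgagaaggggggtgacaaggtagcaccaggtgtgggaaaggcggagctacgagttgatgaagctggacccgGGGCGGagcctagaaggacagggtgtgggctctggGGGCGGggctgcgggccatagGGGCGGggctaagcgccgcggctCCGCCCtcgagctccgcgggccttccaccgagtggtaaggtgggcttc
Chrnb2, chr3:89764633-89764882, minus strand: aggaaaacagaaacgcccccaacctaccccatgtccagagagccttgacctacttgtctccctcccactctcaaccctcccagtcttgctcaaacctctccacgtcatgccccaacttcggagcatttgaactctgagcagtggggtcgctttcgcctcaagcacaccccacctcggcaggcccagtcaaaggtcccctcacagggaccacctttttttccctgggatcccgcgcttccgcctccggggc
The GC box, searched on both strands, was found 1 time before *Chrna3* and 4 times before this start site of *Chrna5*, and it was found 0 times before *Chrnb4* and *Chrnb2*. *Chrna4* had 3 matches and *Chrna7* had 1, while the other listed start site of *Chrna5* had 0. Over 32851 mouse promoter windows, 32.7% held at least 1 match in the same 250 bases. GC content was 63.2% before *Chrna3*, 61.2% before *Chrnb4*, 65.2% before this *Chrna5* start and 59.6% before *Chrnb2*. Promoters of *Chrna6* and *Chrnb3* are not printed.

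The question put to the members was whether the sorted cells of the 4 ganglia differ in them. In edgeR's quasi-likelihood test across the 4 ganglia, 7 of the 8 members passed the filter on low counts, and *Chrna5* did not. Of these, *Chrnb4* and *Chrna6* passed an adjusted p of 0.05 (Benjamini-Hochberg over all genes tested), where 429 of 14236 genes, 3.01%, did so. *Chrnb4* had an F of 10.3 and an adjusted p of 0.0248, and *Chrna6* an F of 8.24 and an adjusted p of 0.0430. *Chrna3* passed only without adjustment in edgeR, at an F of 4.19, an unadjusted p of 0.0207 and an adjusted p of 0.185. An unadjusted p under 0.05 was reached by 17.5% of all genes. The adjusted p was 0.541 for *Chrnb2*, 0.799 for *Chrnb3*, 0.831 for *Chrna7* and 0.844 for *Chrna4* in the same edgeR test. DESeq2 called *Chrnb4*, *Chrna6* and *Chrna3*, with adjusted p of 3.94e-05, 0.000409 and 0.0447, where it called 9.49% of the 19704 genes with a p.

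The calls depended on single libraries. *Chrnb4* kept its edgeR call with 13 of the 16 libraries left out singly, and without TG library 2, 3 or 4 its adjusted p was 0.106 to 0.114 at an F of 8.56 to 8.94. In those 3 settings 33 to 36 genes were called in all, against 429 with every library. *Chrna6* kept its call only without TG library 1, NG/JG library 3 or L3–L5 DRG library 4, with an adjusted p of 0.0108 to 0.0358, and leaving out any other library gave 0.0588 to 0.135. Without both TG library 1 and L3–L5 DRG library 4, *Chrna6* had an adjusted p of 0.00708 and *Chrnb4* of 0.0438 in edgeR, where 7.84% of genes passed. When libraries were scaled to the 9 sensory neuron markers in place of all genes, neither was called, with an adjusted p of 0.215 for *Chrnb4* and 0.462 for *Chrna6*, and 13 of the 14236 genes, 0.0913%, passed in all. That scale may itself differ between ganglia. Of the 9 markers *Avil* alone passed the edgeR test (adjusted p = 0.0226), with means of 54.5 CPM in TG and 631 CPM in L3–L5 DRG. DESeq2 called *Avil*, *Scn10a* and *Nefh*.

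**Figure D1:**
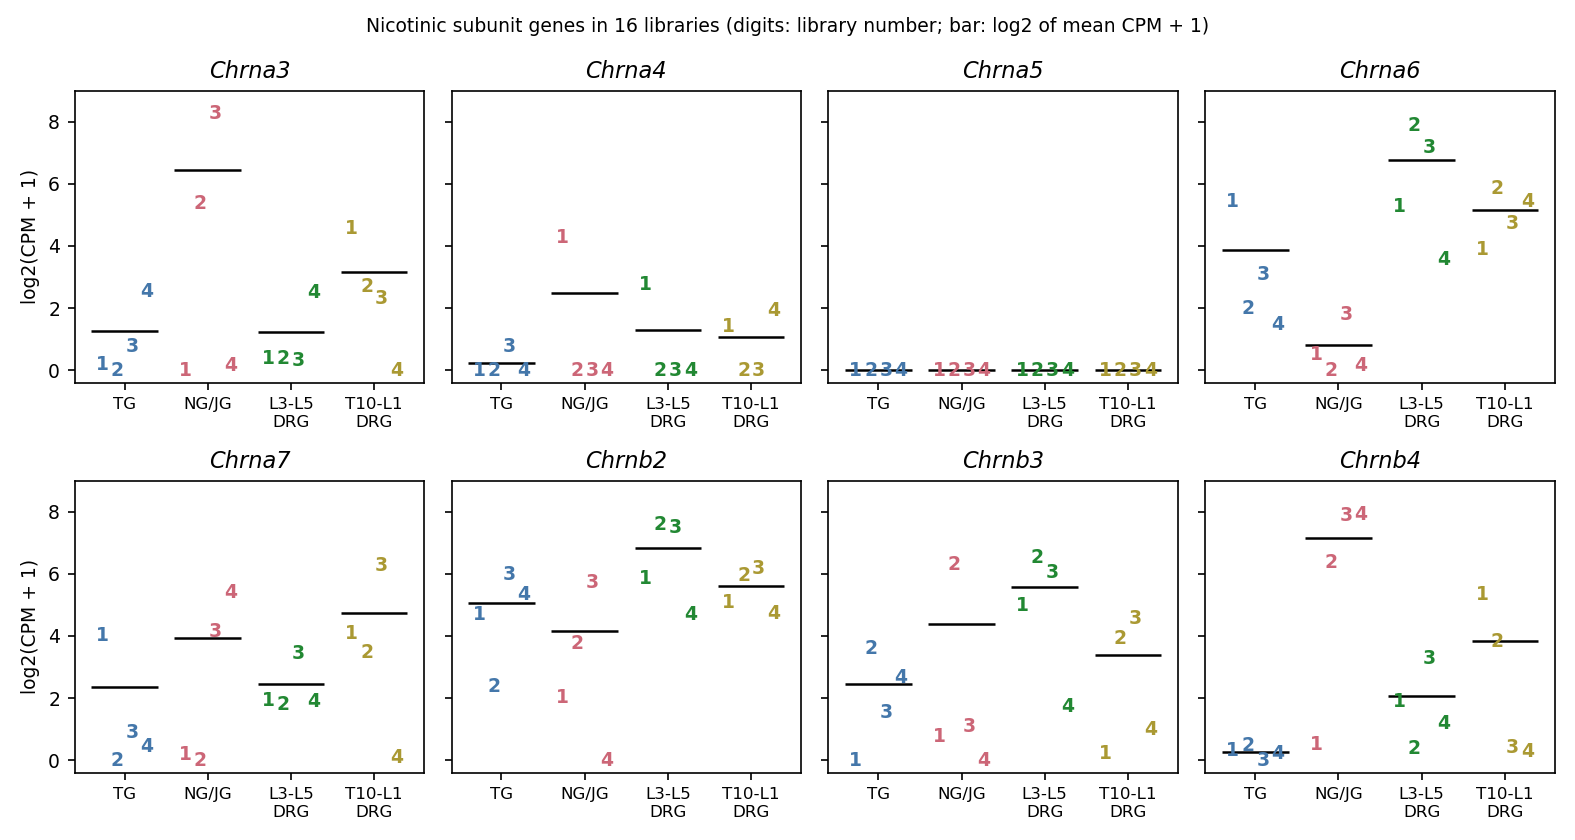
Level of each subunit gene in every library on the log2(CPM + 1) scale, by ganglion, where each digit is a library number and the black bar is the log2 of the mean CPM + 1 of 4 libraries. *Chrnb4* is high in 3 of 4 NG/JG libraries and at the floor in TG, *Chrna6* is high in both DRG groups and low in NG/JG, and *Chrna5* is at 0 throughout.

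Of the chromosome 9 cluster, *Chrnb4* was high in NG/JG and at the floor in TG. The β4 subunit partners α3 and sets channel kinetics and drug sensitivity. NG/JG libraries 1 to 4 had 0.417, 80.9, 236 and 241 CPM, a mean of 140 ± 119 (SD, n = 4). TG libraries had 0.254, 0.393, 0 and 0.176 CPM, from 5 counts in all. NG/JG library 1, with 3 counts, lay just above the highest TG library, so the NG/JG and TG libraries did not overlap in CPM but both sides of that gap were at the floor. Set against a floor of 3 counts in each TG library, the NG/JG mean was at least 277-fold higher.

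The T10-L1 DRG libraries had *Chrnb4* at 39.0 and 13.0 CPM in libraries 1 and 2 and at 0.329 and 0.225 CPM in libraries 3 and 4. In L3–L5 DRG it stood at 2.72, 0.298, 8.65 and 1.27 CPM. Both DRG groups thus held libraries at the floor and libraries well above it, and they overlapped each other. Against TG at its floor the mean of T10-L1 DRG was at least 26.1-fold higher and that of L3–L5 DRG at least 6.43-fold higher, although single libraries of both groups lay within the TG range. Without T10-L1 DRG library 1 the first bound is 9.0, and without L3–L5 DRG library 3 the second is 2.84.

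*Chrna3*, which encodes the acetylcholine-binding partner of β4, was high in a subset of the same libraries. It had 0, 39.9, 306 and 0.103 CPM in NG/JG and 22.6, 5.43, 3.95 and 0 CPM in T10-L1 DRG. In TG it had 0.127, 0, 0.687 and 4.74 CPM, and in L3–L5 DRG 0.292, 0.298, 0.247 and 4.65 CPM. The groups overlapped in every pair, and each ganglion had at least 1 library with 3 counts or fewer. NG/JG library 4 had 2328 counts of *Chrnb4* and 1 count of *Chrna3*, while NG/JG library 3 had 1709 and 2211.

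Across the 16 libraries, *Chrna3* and *Chrnb4* were both above the floor in 6, *Chrna3* alone in 2, *Chrnb4* alone in 3 and neither in 5. Their log2 CPM had r = 0.55 over the 16 libraries, as a description, since libraries of a ganglion share their source. Per length, in RPKM (CPM divided by the exon length in kilobases), NG/JG library 3 had 97.8 of *Chrna3* and 67.8 of *Chrnb4*, and NG/JG library 2 had 12.8 and 23.2. The order of the 2 genes per length was therefore opposite in these libraries.

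*Chrna5*, the accessory subunit of the cluster, had 0 counts in all 16 libraries. Over the 137137853 reads on genes of all libraries, a floor of 3 counts is worth 0.0219 CPM. The annotation and strand setting of the counting are not given, and their part in the 0 counts of *Chrna5* was not tested. The genes that flank the cluster were counted: *Psma4*, a proteasome subunit, had a mean of 89.8 ± 8.18 CPM in TG and 41.6 ± 32.3 CPM in NG/JG (SD, n = 4), and *Fbxo22* and *Ube2q2* were above the floor in all 16 libraries. *Ube2q2*, which encodes a ubiquitin-conjugating enzyme, had a mean of 54.7 CPM in NG/JG and 7.91 CPM in TG. None of the flanking genes passed the edgeR test across ganglia, with an adjusted p of 0.199 for *Psma4*, 0.310 for *Ube2q2* and 0.903 for *Fbxo22*, and *AY074887* was not tested.

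Markers of autonomic neurons were read in the same libraries, because α3 and β4 are known from those cells. *Dbh* and *Slc6a2*, which make and take up noradrenaline, were at or under the floor in all 4 NG/JG libraries. The 6 sympathetic markers summed to 74.4, 37.8, 0.415 and 132 CPM in NG/JG libraries 1 to 4. This sum was lowest in library 3, which had the highest *Chrna3*, and highest in library 4, which had the highest *Chrnb4*. What remained of the sum came mostly from *Slc18a2*, *Gata2* and *Gata3*, and 4 of the 6 markers were above the floor in at least 1 NG/JG library. The same sum was 4.47 to 32.6 CPM in TG and 2.47 to 61.9 CPM in L3–L5 DRG. For T10-L1 DRG it was 29.3 to 80.9 CPM, and library 1, with the most *Chrna3* and *Chrnb4* of its group, also had the highest sum. Of the 3 cholinergic neuron markers, *Chat* was at or under the floor in all 16 libraries, and the list summed to 30.7, 0, 36.1 and 0 CPM in NG/JG, all of it the choline transporter *Slc5a7*. In the other ganglia it summed to at most 4.47 CPM. The part of autonomic neurons in the *Chrna3* and *Chrnb4* values was not tested in NG/JG, T10-L1 DRG or any other ganglion.

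The chromosome 8 cluster showed another distribution. *Chrna6*, the α6 subunit, was higher in both DRG groups than in NG/JG, with no overlap between libraries. L3–L5 DRG libraries 1 to 4 had 37.9, 235, 143 and 10.8 CPM (107 ± 103, SD, n = 4), and T10-L1 DRG libraries had 13.9, 56.8, 25.2 and 42.2 CPM (34.5 ± 18.9). NG/JG libraries had 0.417, 0, 2.49 and 0.103 CPM. TG libraries had 41.9, 2.95, 7.56 and 1.76 CPM, and only the first of them, the library that stood apart, reached the level of the DRG groups.

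The ratio of mean CPM between L3–L5 DRG and NG/JG was 142 for *Chrna6*, and between T10-L1 DRG and NG/JG it was 45.9. Both ratios rest on NG/JG library 3, without which NG/JG is at the floor and the DRG means are at least 299.6-fold and 96.9-fold higher, and without L3–L5 DRG library 2 the first ratio is 84.9. In edgeR on the 8 libraries of each pair, *Chrna6* in NG/JG relative to L3–L5 DRG had a log2 fold change of -7.07 (SE 1.63, unadjusted p = 0.00145, adjusted p = 0.168), and relative to T10-L1 DRG one of -5.48 (SE 1.64, unadjusted p = 0.00773, adjusted p = 0.295). Neither passed after adjustment in edgeR. DESeq2 called both, with adjusted p of 3.61e-05 and 0.000231.

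TG against L3–L5 DRG gave a log2 fold change of -2.77 for *Chrna6* in edgeR (SE 1.10, unadjusted p = 0.0297, adjusted p = 0.211). Without TG library 1 it was -4.28, with an adjusted p of 0.0332, and against T10-L1 DRG the change moved from -1.10 to -2.65, with an adjusted p of 0.0183. In those fits without TG library 1, 15.2% and 26.7% of all genes passed. The remaining 3 TG libraries, at 1.76 to 7.56 CPM, all lay below the lowest DRG library at 10.8 CPM. In TG library 1, *Chrna6* reached 41.9 CPM although the sensory neuron markers were lowest there.

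*Chrnb3*, the accessory β3 subunit, is coded beside *Chrna6* and varied more freely between libraries. It had 30.6, 90.5, 65.0 and 2.32 CPM in L3–L5 DRG and 0.153, 14.1, 22.4 and 0.975 CPM in T10-L1 DRG. In TG it had 0, 11.0, 1.89 and 5.27 CPM, and in NG/JG 0.696, 78.1, 1.11 and 0 CPM. All pairs of ganglia overlapped. NG/JG library 2 had 686 counts of *Chrnb3* and 0 of *Chrna6*, whereas TG library 1 had 330 counts of *Chrna6* and 0 of *Chrnb3*.

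Both genes of this cluster were above the floor in 11 of the 16 libraries, *Chrna6* alone in 2 and *Chrnb3* alone in 2. The correlation of their log2 CPM was 0.29 over 16 libraries. Of the genes beside this cluster, *Eif4ebp1*, a repressor of translation initiation, was above the floor in all 16 libraries and *Unc5d*, a netrin receptor, in 10, with an adjusted p of 0.333 and 0.871 in the edgeR test across ganglia. *Tex24* and *Poteg* were above the floor in 1 library each and were not tested.

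**Figure D2:**
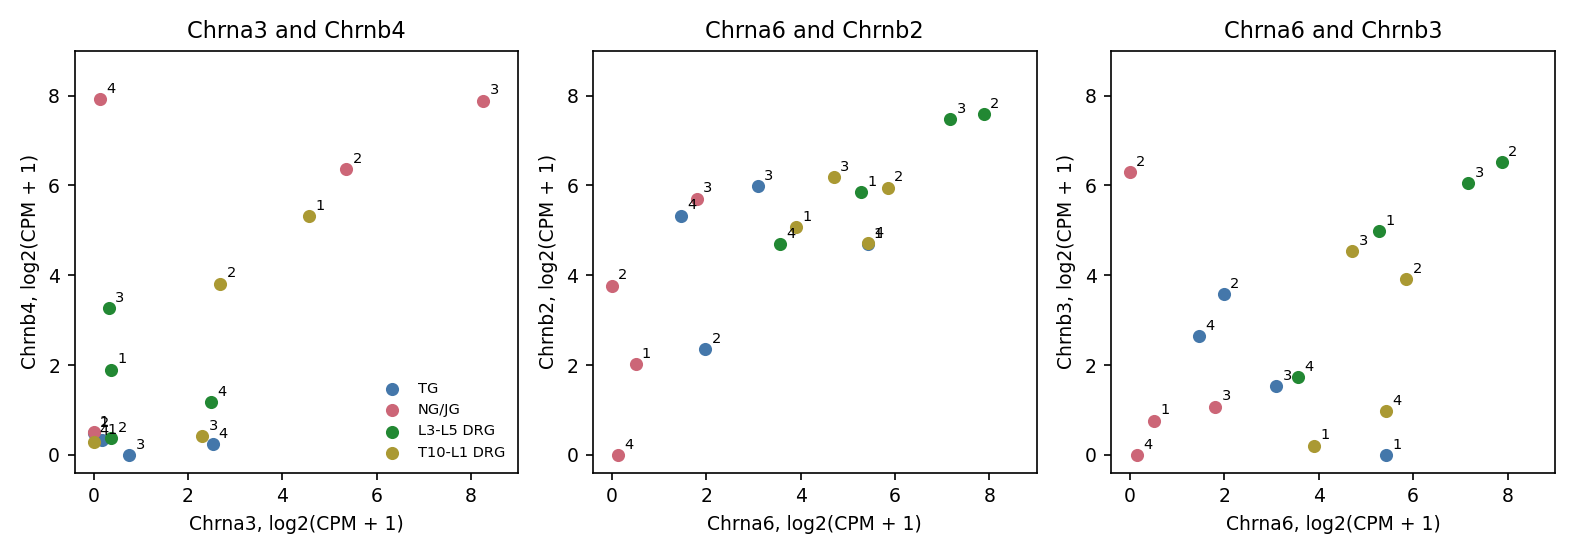
Each point is a library, placed by the log2(CPM + 1) of a pair of subunit genes and coloured by ganglion, with its library number beside it. *Chrna3* and *Chrnb4* are high together in NG/JG libraries 2 and 3 and T10-L1 DRG libraries 1 and 2, and apart in NG/JG library 4, while *Chrna6* and *Chrnb2* were both above the floor in 13 of 16 libraries and *Chrna6* and *Chrnb3* in 11.

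*Chrnb2* was the most widely detected member, above the floor in 15 of the 16 libraries. The β2 subunit joins α4, α3 or α6 in receptors of high agonist affinity. L3–L5 DRG libraries had 56.8, 192, 177 and 24.9 CPM (113 ± 84.4, SD, n = 4), T10-L1 DRG 32.7, 60.8, 71.4 and 25.4 (47.6 ± 22.1), TG 24.8, 4.13, 62.2 and 39.2 (32.6 ± 24.4), and NG/JG 3.06, 12.6, 51.1 and 0 (16.7 ± 23.6). The order of the means was L3–L5 DRG, T10-L1 DRG, TG and NG/JG, and neighbours in this order overlapped. The exception was NG/JG library 4, at 0 counts. *Chrnb2* had the lowest biological coefficient of variation of the 7 members tested, 1.04.

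The summed markers of sensory neurons varied between libraries and are set here beside *Chrnb2* and *Chrna6*. This scale may itself differ between ganglia, as the marker *Avil* passed the edgeR test across them. The 9 sensory neuron markers summed to 3791, 10301, 12212 and 1294 CPM in L3–L5 DRG libraries 1 to 4, the same order of high and low libraries as for *Chrnb2*, apart from libraries 2 and 3. In T10-L1 DRG they summed to 2166, 3430, 4074 and 2159 CPM, an order that *Chrna6* did not follow, and in TG library 1 the lowest sum went with the highest *Chrna6* of its group. Per 1000 CPM of these markers, *Chrnb2* had 15.0, 18.7, 14.5 and 19.3 CPM in L3–L5 DRG and 15.1, 17.7, 17.5 and 11.7 CPM in T10-L1 DRG. On this scale the means were 16.9 ± 2.45 and 15.5 ± 2.79 (SD, n = 4), a difference smaller than the SD of either group.

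*Chrnb2* per 1000 CPM of markers was 2.03 to 26.1 in TG and 0 to 10.9 in NG/JG. For *Chrna6* the same quantity was 8.33 to 22.8 in L3–L5 DRG. It was 6.17 to 19.5 in T10-L1 DRG but 0 to 0.528 in NG/JG, without overlap between NG/JG and the DRG groups. Its means in L3–L5 DRG and T10-L1 DRG were 13.2 ± 6.56 and 12.2 ± 6.89. The share of all genes without overlap on this scale was not computed. In the edgeR test across ganglia with libraries scaled to these markers, *Chrna6* had an adjusted p of 0.462. *Chrnb4* had 17.8, 50.1 and 82.0 in NG/JG libraries 2 to 4 and 0.308 in library 1. T10-L1 DRG library 1 had 18.0, within that range, and the other 3 libraries of its group had 0.0807 to 3.80. *Chrnb4* had at most 0.979 in L3–L5 DRG and 0.268 in TG. In sorted bulk RNA, fewer cells of a type and less RNA per cell cannot be told apart.

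**Figure D3:**
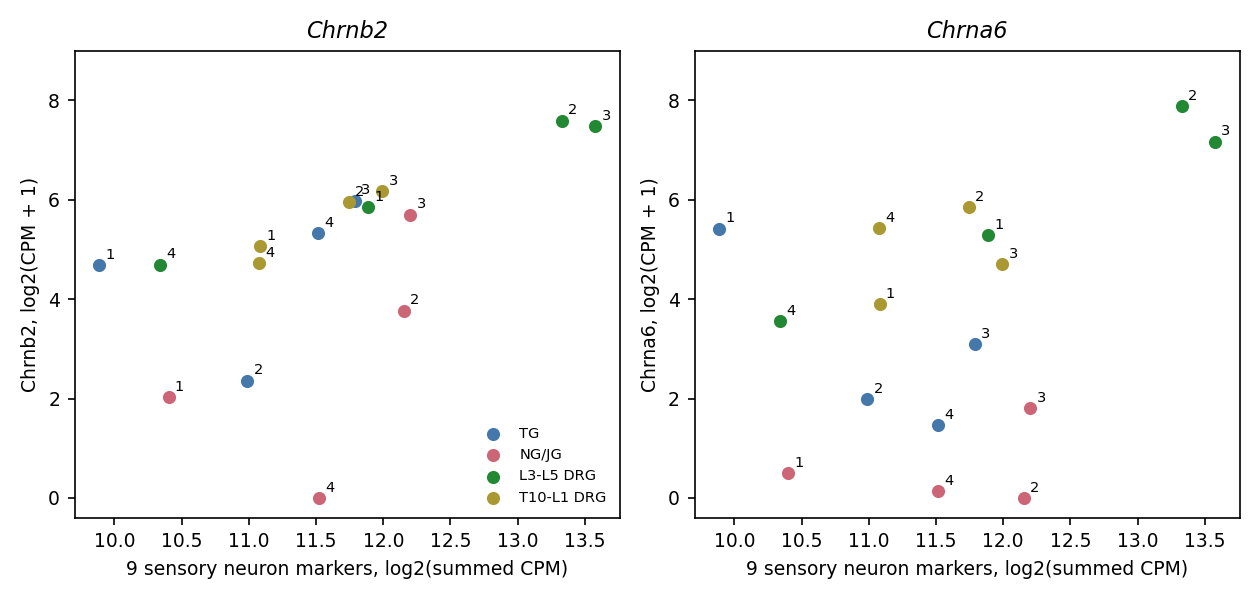
Level of *Chrnb2* (left) and *Chrna6* (right), as log2(CPM + 1), against the log2 of the summed CPM of 9 sensory neuron markers, with 1 point per library, coloured by ganglion and numbered. In the left panel the 8 DRG libraries lie along a rising band, in the right panel they scatter more, and the NG/JG libraries lie below them for *Chrna6* at marker sums of 1354 to 4711 CPM.

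*Chrna4*, the α4 partner of β2, was rare. It had 18.4 CPM in NG/JG library 1 and 5.74 CPM in L3–L5 DRG library 1, and 0 counts in the other 3 libraries of both groups. In T10-L1 DRG it had 1.68, 0, 0 and 2.78 CPM, and in TG 4 counts in library 3 only. *Chrna4* was above the floor in 5 libraries, all of which also had *Chrnb2* above it, while *Chrnb2* was above the floor in 10 libraries without *Chrna4*.

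*Chrna7*, the α7 subunit of calcium-permeable homomeric receptors, was present in every ganglion but not in every library. T10-L1 DRG libraries had 15.9, 10.2, 75.7 and 0.0750 CPM, NG/JG 0.139, 0, 16.6 and 40.7, TG 15.1, 0, 0.859 and 0.351, and L3–L5 DRG 2.82, 2.48, 9.89 and 2.75. Only in L3–L5 DRG did all 4 libraries have it above the floor. Without TG library 1, the log2 fold change of TG over T10-L1 DRG moved from -2.43 to -5.51 in edgeR, with an adjusted p of 0.0487 against 0.469 with it, in a fit where 26.7% of all genes passed. Macrophages also express α7. In T10-L1 DRG their 5 markers summed to 8424 CPM in library 4, where *Chrna7* had 1 count. They summed to 396 to 591 CPM in the other 3 libraries of that group. In TG libraries 1 to 4 these markers summed to 2513, 1581, 1189 and 4652 CPM. The NG/JG sums were 1671, 23.8, 10.6 and 97.9 CPM, and the L3–L5 DRG sums 3431, 43.3, 54.4 and 331 CPM. The part of macrophages in the *Chrna7* levels was not tested.

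In pairs of ganglia, 0 of the members tested passed an adjusted p of 0.05 in edgeR in any of the 6 comparisons. For L3–L5 against T10-L1 DRG, 0 of 6 members passed with or without adjustment, where 0% and 6.07% of all genes tested did. The lowest adjusted p over the members was 0.785, and DESeq2 also called 0, beside 0.4% of genes. The log2 fold changes of L3–L5 over T10-L1 DRG were 1.63 for *Chrna6* (SE 0.834), 1.25 for *Chrnb2* (SE 0.638) and 2.32 for *Chrnb3* (SE 1.32), and -2.62 for *Chrna3* (SE 1.70), -2.52 for *Chrna7* (SE 1.33) and -1.99 for *Chrnb4* (SE 1.56).

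For NG/JG against T10-L1 DRG, *Chrna6* was the 1 of 6 members at an unadjusted p under 0.05, and the 1 member without overlap between libraries. The background was 0.0322% of genes with adjustment, 5.91% without it and 8.04% without overlap. DESeq2 called *Chrna6* alone of the members, beside 5.38% of genes. For NG/JG against L3–L5 DRG, *Chrna6* and *Chrnb4* were the 2 of 5 members at that level, and *Chrna6* was the 1 member without overlap, where the background was 0%, 6.04% and 7.34% of genes. *Chrnb4* was higher in NG/JG, with a log2 fold change of 5.56 in edgeR (SE 1.60, unadjusted p = 0.00595, adjusted p = 0.277). DESeq2 called *Chrna3*, *Chrna6* and *Chrnb4* there, with adjusted p of 0.0389, 3.61e-05 and 0.00281, beside 4.49% of genes. Of these, *Chrna3* was left out by the edgeR filter in this pair, and edgeR without that filter called 0 members. The fit of all 16 libraries in edgeR called *Chrna6*, with an adjusted p of 0.0371, beside 0.583% of genes.

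For TG against T10-L1 DRG, 0 of 5 members passed at either level, where 5.87% and 21.6% of genes did. DESeq2 called *Chrnb4* (adjusted p = 0.00443), which the edgeR filter left out, beside 12.1% of genes. Without that filter edgeR called 0 members in this pair. For TG against L3–L5 DRG, *Chrna6* was the 1 of 4 members at an unadjusted p under 0.05, beside 0% and 18.2% of genes, and DESeq2 called 0, beside 8.41% of genes. For TG against NG/JG, 0 of 3 members passed at either level, beside 0.051% and 10% of genes, and 9.63% of the genes tested had no overlap between libraries. *Chrnb4*, whose libraries did not overlap in that pair, fell outside the filter of edgeR. DESeq2 called it with an adjusted p of 2.18e-07, beside 5.3% of genes. In edgeR it was called without that filter and in the fit of all 16 libraries. The share of all genes called in those settings is not given here.

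**Figure D4:**
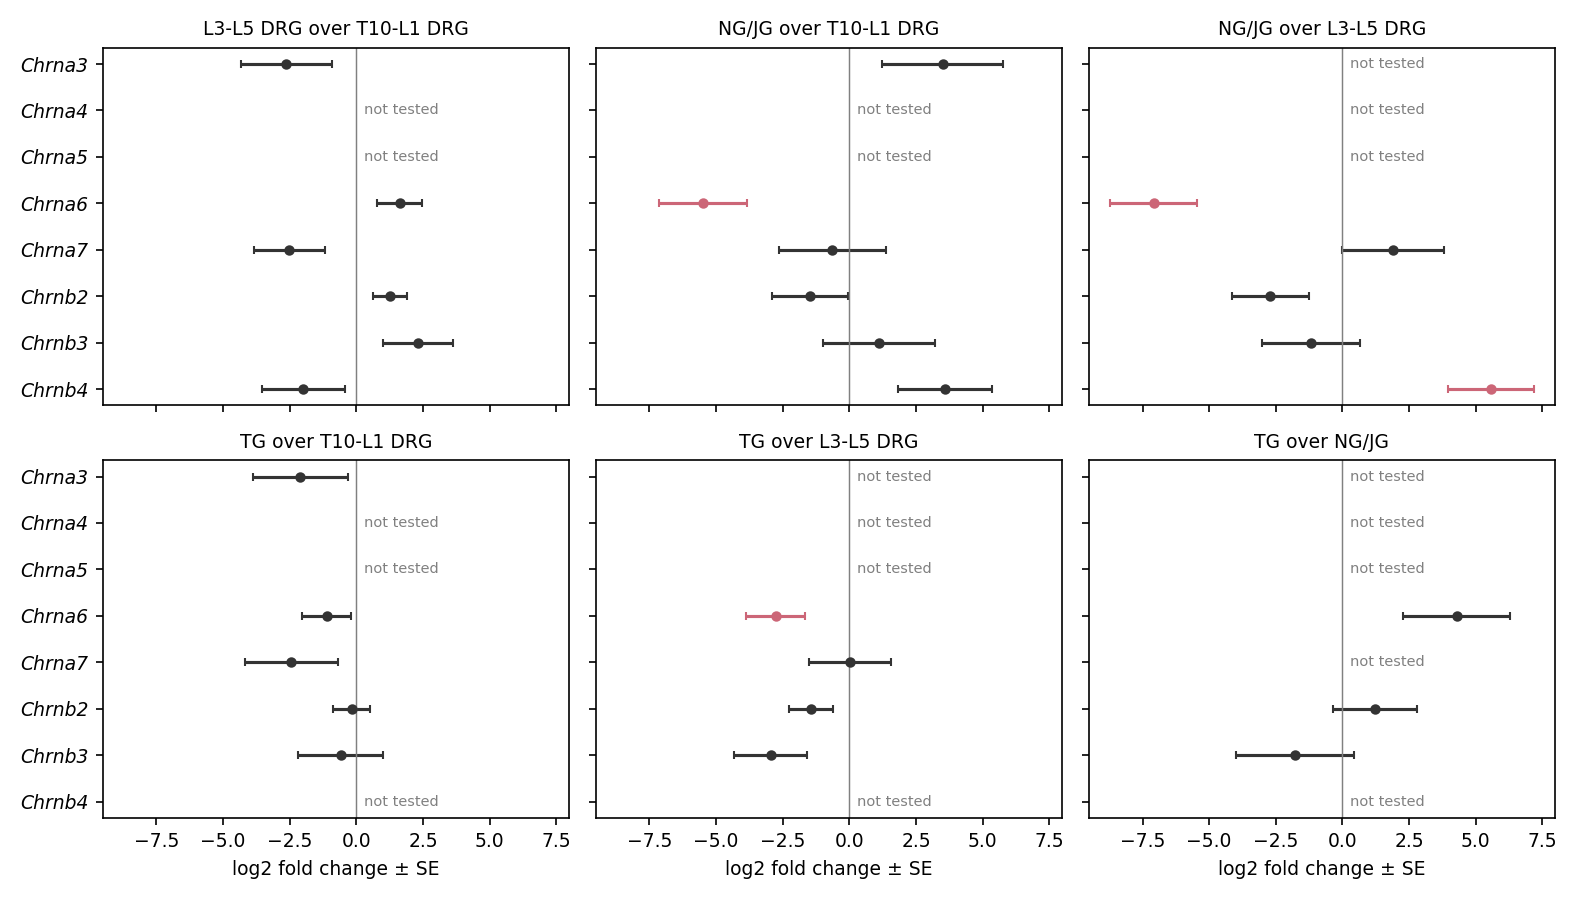
Log2 fold change of each member in the 6 pairs of ganglia, from edgeR on the 8 libraries of the pair, with bars of 1 standard error. Red points had an unadjusted p under 0.05, and grey text marks members left out by the filter on low counts: *Chrna6* lies to the left in both comparisons of NG/JG with DRG, and *Chrnb4* to the right against L3–L5 DRG.

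Within a ganglion the members varied widely. Their median biological coefficient of variation in edgeR was 1.59, from 1.04 to 3.18 over the 7 tested, against a median of 1.03 over 14236 genes. Those genes were not matched to the members for level. *Chrna4*, at 3.18, had a median of 0 CPM over the 16 libraries, while the widely detected *Chrnb2* and *Chrna6* had 1.04 and 1.07, near the median of all genes. A member could have 3 counts or fewer in one library of a ganglion and 100 or more in another, a rule chosen after the values were seen. In NG/JG this held for 6 of the 8 members, all but *Chrna5* and *Chrna6*, beside 36.8% of genes. In T10-L1 DRG it held for 4 members (*Chrna3*, *Chrna7*, *Chrnb3* and *Chrnb4*) beside 5.12% of genes, in TG for *Chrna7* beside 8.68%, and in L3–L5 DRG for *Chrnb4* beside 8.79%.

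The makeup of the receptor transcripts, as each gene's share of the summed RPKM of the 8, is given as a description. It varied between libraries of a ganglion, with another leading gene in some of them in every group. *Chrna6* and *Chrnb2* together led L3–L5 DRG: *Chrna6* held 39.6%, 59.1%, 48.7% and 32.8% of the sum in libraries 1 to 4, and *Chrnb2* 32.0%, 26.0%, 32.6% and 41.0%. Their order depends on the correction for length: as shares of counts, the means were 32.8% for *Chrna6* and 43.9% for *Chrnb2*, against 45.1% and 32.9% of RPKM. *Chrnb3* came next in libraries 1 to 3, and *Chrna3*, at 13.2%, in library 4. *Chrna6* and *Chrnb2* were the leading pair of genes in all 4 libraries, although the sum itself ran from 11.3 to 137 RPKM.

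In NG/JG each library had another makeup. Library 1 had *Chrna4* at 78.6% of a sum of 4.73 RPKM, library 2 *Chrnb4* at 41.9% and *Chrnb3* at 30.7% of 55.4 RPKM, and library 4 *Chrnb4* at 88.4% of 78.0 RPKM. Library 3 had *Chrna3* at 54.4% and *Chrnb4* at 37.7% of 180 RPKM, the highest sum of the 16. *Chrna6* made up at most 3.04% in any of them.

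In T10-L1 DRG, *Chrnb2* was the steadiest, at 18.3% to 29.6%, while *Chrna6* ran from 14.4% to 72.3%. Library 1 of that group was led by *Chrnb4* (33.7%), library 3 by *Chrna7* (37.2%) and libraries 2 and 4 by *Chrna6*. TG had the lowest sums as a group, 4.30 to 22.5 RPKM, and was led by *Chrna6* in library 1, by *Chrnb3* in library 2 and by *Chrnb2* in libraries 3 and 4. Over the 16 libraries *Chrna6* led in 6, *Chrnb2* and *Chrnb4* in 3 each and *Chrna3*, *Chrna4*, *Chrna7* and *Chrnb3* in 1 each, and a library had 2 to 6 members above the floor.

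**Figure D5:**
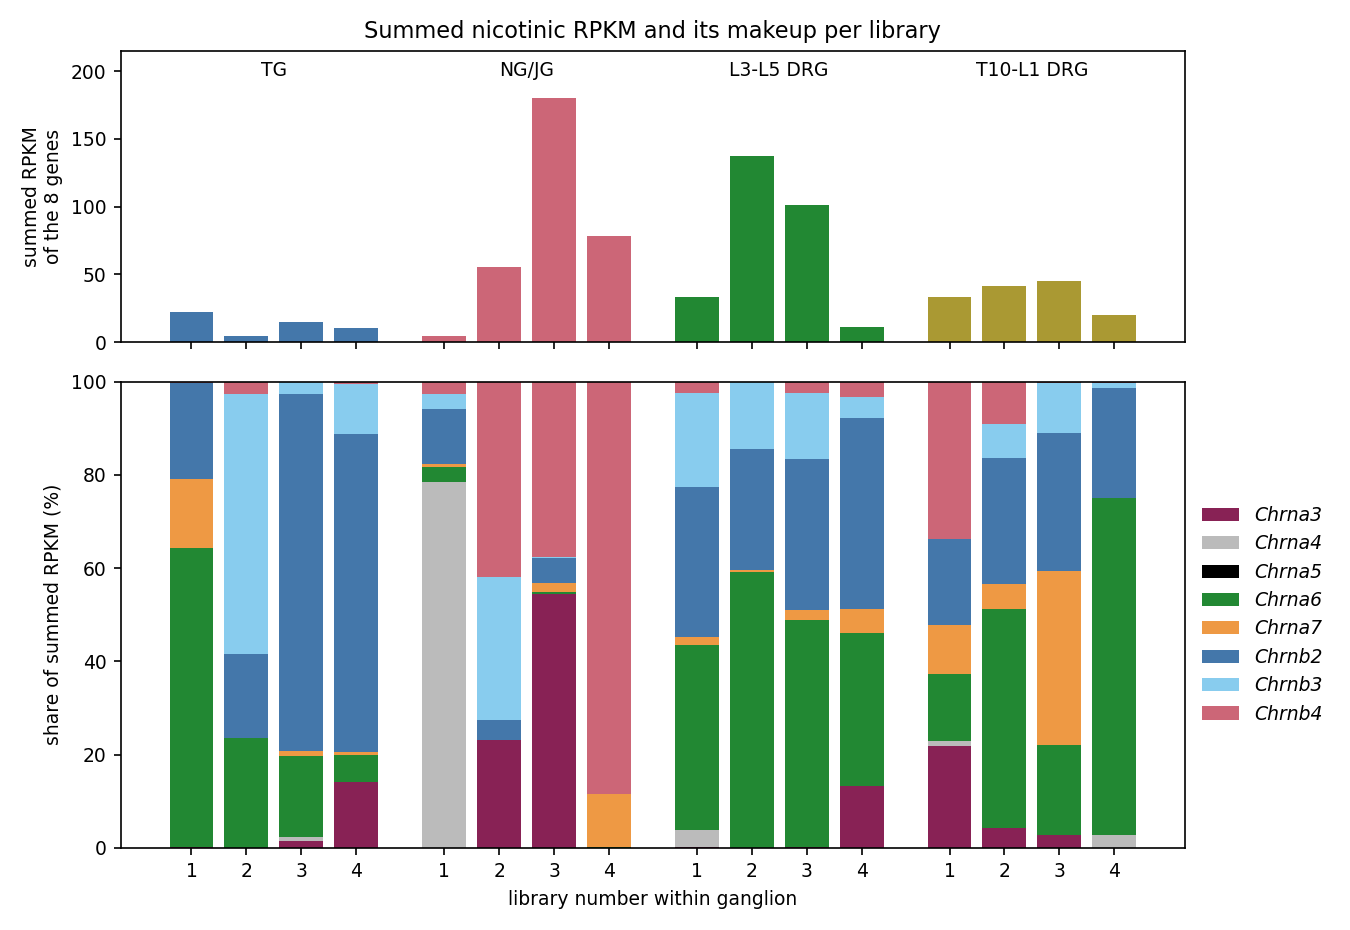
Summed RPKM of the 8 genes (upper panel) and the share of each gene in that sum in percent (lower panel), with 1 bar per library, grouped by ganglion. L3–L5 DRG libraries are mostly *Chrna6*, *Chrnb2* and *Chrnb3*, while NG/JG libraries 2 to 4 are led by *Chrnb4* or *Chrna3* and library 1, at 4.73 RPKM, by *Chrna4*.

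The genes whose log2 CPM over the 16 libraries was most like that of each member were listed as a description, over 14235 other genes. The points share library depth and the level of neuron markers, and sparse counts make weak likeness common. *Chrna6* was most like *Mal2*, a membrane trafficking protein (r = 0.94), *Zcchc4* (0.93) and *Rnf144a*, a ubiquitin ligase (0.93). *Chrnb2* was most like *Panx1*, a pannexin channel (0.93), and *Rangap1* (0.92). Among the members, *Chrnb2* and *Chrna6* had the highest r of the 21 pairs, 0.74, and *Chrna6* and *Chrnb4* the lowest, -0.43.

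*Chrnb3* was most like *Fam19a4* (r = 0.91), a secreted protein known from low-threshold mechanoreceptors, *Fam5b* (0.89) and *Iqcg* (0.87). *Chrnb4* was most like *Dpyd*, an enzyme of pyrimidine breakdown (0.85), *Ngfr*, the p75 neurotrophin receptor (0.83), and *Mbip* (0.82). *Ngfr* had a mean of 422 CPM in NG/JG and 51.8 CPM in TG. *Chrna3* was most like *BC068281* (0.82), *Kcnh2*, a potassium channel (0.80), and the muscarinic receptor *Chrm1* (0.77), *Chrna7* like *Snord4a* (0.85), *Rpl23a* (0.82) and *Slc22a5* (0.80), and *Chrna4* like *Tlr9*, *Slc28a2* and *Piwil4* (all 0.79).

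Other genes of cholinergic signalling were counted from lists, none of which had a gene past the adjusted threshold of the edgeR test across ganglia, beside 3.01% of all genes. Without adjustment 17.5% of all genes passed, which is the share to set beside the counts below. DESeq2 called 4 of these genes: *Lypd6b*, *Lypd1*, *Colq* and *Chrm2*, with adjusted p of 0.000801, 0.0172, 0.0271 and 0.0108, beside 9.49% of all genes. Of 8 other nicotinic subunits, most of them known from muscle or hair cells, 2 were tested, 0 passed at either level and 4 were at or under the floor in every library. The highest were *Chrnb1*, with a mean of 5.37 CPM in L3–L5 DRG, and *Chrna1*, with 1.74 CPM in TG. Both are muscle subunits.

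Of 11 assembly factors and regulators of nicotinic receptors, 9 were tested and 3 passed without adjustment. By edgeR these were *Lypd6b* (unadjusted p = 0.00397, adjusted p = 0.0833), *Lypd1* (unadjusted p = 0.0361, adjusted p = 0.246) and *Lypd6* (unadjusted p = 0.0386, adjusted p = 0.255), all members of the Ly6 family of small proteins that bind nicotinic receptors. *Lypd6b* had 0.211 to 42.3 CPM in L3–L5 DRG and 0 counts in every NG/JG library. *Lypd6* also had 0 counts in every NG/JG library, and *Lypd1* had a mean of 11.2 CPM in NG/JG and 0.0921 CPM in TG. *Unc50*, which takes part in receptor trafficking, and *Lynx1*, a Ly6 brake on receptor activity, were the highest of the list, with means over 16 libraries of 104 and 77.5 CPM.

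Of 7 genes for acetylcholine synthesis, transport and breakdown, 4 were tested and 1 passed without adjustment, *Colq*, the collagen tail of acetylcholinesterase (unadjusted p = 0.0165, adjusted p = 0.168 in edgeR). *Colq* had a mean of 24.8 ± 27.8 CPM in NG/JG (SD, n = 4), 2.31 in T10-L1 DRG, 0.605 in L3–L5 DRG and 0.141 in TG. The cholinesterases *Ache* and *Bche* were the highest of the list, with means over 16 libraries of 69.0 and 14.4 CPM. Of the 5 muscarinic receptors 3 were tested and 1 passed without adjustment: *Chrm2* (unadjusted p = 0.00557, adjusted p = 0.101) had a mean of 7.44 ± 5.83 CPM in L3–L5 DRG and 0 counts in NG/JG. *Chrm1*, the highest of the list, had 4.69 CPM over the 16 libraries.

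Markers of other cells were summed in the same libraries. The 7 vagal sensory markers summed to 341 to 2162 CPM in NG/JG and to at most 208 CPM in any other library. *Htr3a* and *P2rx2* had the highest NG/JG means, 521 and 296 CPM. *Npy2r* and *Cckar* were also highest in NG/JG, but *Htr3b* was highest in TG (9.84 CPM, against 4.46 in NG/JG). *Gpr65* was highest in T10-L1 DRG (40.6 against 22.3), and *Glp1r* was 0 in NG/JG. The 5 markers of DRG and TG neurons summed to 2.58 to 106 CPM in NG/JG against 175 to 2639 CPM in L3–L5 DRG libraries. Of these, *Mrgpra3* was not lower in NG/JG (5.56 CPM) than in L3–L5 DRG (5.20). The T10-L1 DRG range was 368 to 711 CPM and the TG range 227 to 975 CPM. The 4 Schwann cell markers summed to 7874 to 52876 CPM. They were highest in TG library 1 (52876) and L3–L5 DRG library 4 (44997). In these libraries the 9 sensory neuron markers summed to 948 and 1294 CPM. Only in L3–L5 DRG libraries 2 and 3 was the neuron sum the higher, at 10301 and 12212 against 7874 and 7889 CPM. Sums over different markers do not give the share of RNA from each cell type. The 4 satellite glia markers summed to 2493 to 13119 CPM and the 4 oligodendrocyte markers to 53.1 to 1874 CPM, both highest in TG library 1.

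Macrophage markers, 5 in all, ranged from 10.6 CPM in NG/JG to 8424 CPM in T10-L1 DRG. The 3 pituitary markers summed to 70.8 to 9500 CPM in TG and to at most 20.5 CPM elsewhere. Central neuron markers (6) reached at most 9.50 CPM and skeletal muscle markers (4) at most 11.9 CPM. The part of these cells in the subunit levels was not tested, apart from the values given beside them.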

How the data were processed

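RNA-seq counts of 16 libraries from 4 ganglia were used, with groups taken from the labels. The authors made oligo dT primed SMART-seq2 libraries and sequenced them as single reads. Alignment was by TopHat2 against mm9, and HTSeq gave 1 count per gene symbol. The deposited counts are not normalized. Annotation, strand setting and tool versions of that step are not given in the sources used here. The counter's totals of uncounted reads were left out.

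All genes were tested with edgeR 4.0.16 in R 4.3.3 (TMM, filterByExpr, quasi-likelihood test, Benjamini-Hochberg), across the 4 ganglia on 16 libraries and for each of 6 pairs on its 8 libraries, with the ganglion as the only term. DESeq2 1.42.0 was the alternative, and the code was tested on simulated data. There DESeq2 called many genes that had been set as unchanged, and edgeR called few. Calls made by DESeq2 alone are to be read with that limit. CPM relates a count to all reads that fell on genes in that library, and RPKM divides it by the kilobases of the union of exons in GENCODE M1 on NCBIM37, the assembly of mm9, which gave a length for 21430 of 22609 symbols. A group with 3 counts or fewer in every library was treated as at the floor. Tables and plots used Python 3.11.15.

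Members and lists were chosen with earlier results of these data known. Named besides the members were the 3 genes most like each member (Pearson r of log2 CPM, prior count 2), the genes beside both clusters, and from each cholinergic list those with an unadjusted p under 0.05 and the 2 with the highest mean CPM. A gene that this rule selects is not reported here. Scaling to the sensory neuron markers and leaving out TG library 1 with L3–L5 DRG library 4 were added after seeing the data.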

Additional observations from a re-analysis of the deposited data

Results flagged for a closer look

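In groups of 4 libraries, a library was listed when its gap to the nearest other, divided by the range of the group, exceeded Dixon's critical value for 4 samples. Of 27 groups examined, 11 had such a library, where chance gives a share of about 0.05 for normally distributed values. CPM values with many zeros are not, and a group with a single non-zero library meets the criterion by construction, so the 2 shares are not comparable. For *Chrna3* these were TG library 4 (4.74 CPM), NG/JG library 3 (306 CPM) and L3–L5 DRG library 4 (4.65 CPM). For *Chrna4* they were TG library 3 (0.687 CPM), NG/JG library 1 (18.4 CPM) and L3–L5 DRG library 1 (5.74 CPM), each the only library of its group with any count. *Chrna6* stood apart in TG library 1 (41.9 CPM) and NG/JG library 3 (2.49 CPM), and *Chrna7* in TG library 1 (15.1 CPM) and L3–L5 DRG library 3 (9.89 CPM). *Chrnb3* stood apart in NG/JG library 2 (78.1 CPM, with 1.11 CPM in the nearest other). In every case the library lay above the rest of its group.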

How the results depend on the processing

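Across the 4 ganglia 2 members were called. The count was 0 with a replicate block and 0 when scaled to the sensory neuron markers, and 0 to 2 when single libraries were left out. The count stayed at 2 under RLE factors, under no filter on low counts and without the 2 libraries that stood apart, and it was 3 in DESeq2. Under the replicate block the adjusted p was 0.0856 for *Chrnb4* and 0.0919 for *Chrna6*. Same-numbered libraries did not meet the criterion for pairing, that all 4 of their correlations exceed 0.1: 3 of 4 did in L3–L5 against T10-L1 DRG, their means over comparisons ran from 0.00825 to 0.107, and in NG/JG against L3–L5 DRG all 4 correlated best with their own number.

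In pairs of ganglia edgeR called 0 members. DESeq2 called 1 in NG/JG against T10-L1 DRG, 3 in NG/JG against L3–L5 DRG, 1 in TG against T10-L1 DRG and 1 in TG against NG/JG. The fit of all 16 libraries called 1 in NG/JG against L3–L5 DRG (*Chrna6*) and 1 in TG against NG/JG (*Chrnb4*). In the latter pair, no filter on low counts also called 1, again *Chrnb4*. Leaving out single libraries gave 0 to 2 calls in TG against T10-L1 DRG, 0 to 1 in TG against L3–L5 DRG (both highest without TG library 1) and 0 to 1 in TG against NG/JG (*Chrnb4*, without NG/JG library 1, the low one of its group), and 0 in the other pairs.

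Some directions reversed, in pairs of ganglia where edgeR had called 0 members. With the replicate block the log2 fold change was -1.06 for *Chrnb3* in NG/JG over T10-L1 DRG, -1.31 for *Chrna7* in NG/JG over L3–L5 DRG and -2.35 for *Chrna7* in TG over L3–L5 DRG, where it was -0.00689 with no filter. Leaving out single libraries gave ranges across 0: -2.17 to 0.955 (*Chrna7*) and -3.88 to 1.54 (*Chrnb3*) in NG/JG over T10-L1 DRG, -0.735 to 0.187 (*Chrnb2*) and -1.57 to 0.352 (*Chrnb3*) in TG over T10-L1 DRG, -3.01 to 0.813 (*Chrna7*) in TG over L3–L5 DRG and -2.76 to 3.18 (*Chrnb3*) in TG over NG/JG. The cause was not tested. The levels of *Chrna5*, and of *Chrnb4* in TG, can be given only as at or under the floor, whose CPM value follows from read depth.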
